A study of Mus musculus with 6 samples.

Results

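The genes described here are nuclear genes for subunits of the oxidative phosphorylation complexes, measured cell by cell in adult mouse testis. They were chosen by symbol: 78 of 25771 measured genes had a symbol of the form Nduf followed by a, b, c, s or v and a number, Sdha to Sdhd, Uqcr, Cox4 to Cox7 or Atp5, pseudogenes left out. Cox6b1, Cox6b2, Cox7b and Cox7b2 were set aside, which left 74 members: 35 of complex I, 4 of complex II, 8 of complex III, 10 of complex IV and 17 of complex V. The rule uses symbols alone. Subunits with other symbols, such as Cyc1, Ndufab1, Cox8a and Cox8c, are thus not members, and sums over a complex hold its members only. The study compared testes of adult C57BL6 mice of the genotype labelled NONO deltaER with testes of the genotype labelled NONO, with 3 single-cell libraries of each. NONO is an X-linked nuclear protein that binds RNA and DNA. The sources used here do not give what the deltaER form lacks. Nor do they say whether each library is from its own animal, so every p-value measures library-to-library spread, which may be only technical. The deposited cell table names its groups KI and WT, read here as NONO deltaER and NONO, and a wrong reading would turn each direction given. The libraries are called TD, TE and TF for NONO deltaER and TA, TB and TC for NONO, and per-library values follow that order of letters throughout.

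Oxidative phosphorylation takes place in the inner mitochondrial membrane. Complex I accepts electrons from NADH and complex II accepts them from succinate, complex III passes them to cytochrome c and complex IV to oxygen, and the proton gradient built on the way drives complex V, the ATP synthase. Most subunits are encoded in the nucleus and imported, while a small set is encoded by the mitochondrial genome. During spermatogenesis germ cells pass from spermatogonia through meiosis to spermatids, their mitochondria change shape on the way, and transcription stops as the spermatid nucleus condenses. Meiotic cells also silence the X chromosome, which carries Ndufa1 and Ndufb11.

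The 74 members were spread over the genome. On mm10, 72 of them were placed on 1 annotated gene, on 19 chromosomes, with gene spans of 1.205 to 100.464 kb (median 7.565 kb). Only Ndufa1 (chrX:37187588-37191163) and Ndufb11 (chrX:20615326-20617619) were X-linked among the placed members, and both encode small accessory subunits of the membrane arm of complex I. The genes for the c subunit, which forms the rotating ring of the ATP synthase, were Atp5g1 (chr11:96068852-96075670), Atp5g2 (chr15:102662864-102672352) and Atp5g3 (chr2:73908447-73911326). Atp5j (chr16:84827866-84835625) encodes coupling factor 6 of the stalk. All 6 of these genes lie on the minus strand.

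Promoter windows from RefSeq (GRCm38.p6, 250 bases before to 50 bases after a start) were found for 60 of the 74 members, 65 windows in all. The windows below are those of the 6 genes just named, because the contrast between the c subunit genes, the levels of the X-linked pair and the genotype values of Atp5j carry much of what follows. They are written 5′ to 3′ on the strand of the gene, in lower case, with matches to the motifs described after them in capitals.
Atp5g1, chr11:96075582-96075881, minus strand: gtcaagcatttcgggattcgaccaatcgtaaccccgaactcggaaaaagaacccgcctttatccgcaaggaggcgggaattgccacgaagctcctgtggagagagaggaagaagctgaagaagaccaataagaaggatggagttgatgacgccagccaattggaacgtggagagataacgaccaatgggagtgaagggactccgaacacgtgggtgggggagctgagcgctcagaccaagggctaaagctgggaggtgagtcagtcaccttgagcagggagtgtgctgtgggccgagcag
Atp5g2, chr15:102670998-102671297, minus strand: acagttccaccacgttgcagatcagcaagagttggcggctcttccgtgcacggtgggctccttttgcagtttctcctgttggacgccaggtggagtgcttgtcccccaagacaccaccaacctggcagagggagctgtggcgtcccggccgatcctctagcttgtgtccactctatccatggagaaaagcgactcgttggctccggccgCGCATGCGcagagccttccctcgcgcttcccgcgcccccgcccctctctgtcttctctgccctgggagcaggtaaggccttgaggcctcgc
Atp5g3, chr2:73911277-73911576, minus strand: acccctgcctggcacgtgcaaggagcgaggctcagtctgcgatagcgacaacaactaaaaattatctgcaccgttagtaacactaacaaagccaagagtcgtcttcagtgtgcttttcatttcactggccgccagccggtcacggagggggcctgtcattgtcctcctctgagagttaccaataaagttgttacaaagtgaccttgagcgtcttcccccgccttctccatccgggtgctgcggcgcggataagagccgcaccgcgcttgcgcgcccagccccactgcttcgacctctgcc
Atp5j, chr16:84834927-84835226, minus strand: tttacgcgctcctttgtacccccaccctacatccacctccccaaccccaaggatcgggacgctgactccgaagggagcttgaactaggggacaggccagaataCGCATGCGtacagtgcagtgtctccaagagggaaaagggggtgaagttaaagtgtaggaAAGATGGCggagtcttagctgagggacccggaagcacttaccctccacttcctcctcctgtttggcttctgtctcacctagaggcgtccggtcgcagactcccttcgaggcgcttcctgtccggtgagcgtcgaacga
Ndufa1, chrX:37191189-37191488, minus strand: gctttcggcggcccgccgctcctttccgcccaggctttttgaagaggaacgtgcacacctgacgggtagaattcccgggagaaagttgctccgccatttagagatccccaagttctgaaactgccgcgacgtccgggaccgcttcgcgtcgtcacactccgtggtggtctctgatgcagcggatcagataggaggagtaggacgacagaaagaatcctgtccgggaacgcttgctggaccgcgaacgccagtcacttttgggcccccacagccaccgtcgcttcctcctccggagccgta
Ndufb11, chrX:20617570-20617869, minus strand: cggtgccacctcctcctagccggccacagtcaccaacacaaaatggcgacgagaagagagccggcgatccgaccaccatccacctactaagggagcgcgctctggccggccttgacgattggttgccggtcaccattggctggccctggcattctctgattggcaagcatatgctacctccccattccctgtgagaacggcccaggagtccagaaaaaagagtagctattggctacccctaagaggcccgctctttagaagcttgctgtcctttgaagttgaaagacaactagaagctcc

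The letters CGCATGCG, a core of the site of NRF1, an activator of nuclear genes for mitochondrial proteins, stood in 9 of the 65 member windows (13.8%), against 1.87% of all 32851 windows and 2.52% of the 21263 windows of protein-coding genes. AAGATGGC, a core of the YY1 site, stood in 9 member windows (13.8%), against 2.75% of all windows and 3.05% of coding ones. CCGGAAGT, an ETS core, stood in 4 (6.15%), against 3.89% and 5.15%. Both strands were searched, and these letters do not overlap each other as written. Median GC content was 58.3% in member windows, 52.7% in all windows and 56.3% in coding ones, so base composition differs along with the motif shares. Among the c subunit genes, Atp5g2 had the NRF1 letters, while the windows of Atp5g1 and Atp5g3 held none of the 3 motifs, as did those of Ndufa1 and Ndufb11. Atp5j had a second, GC-rich window without any of them. A match is a match of letters, not evidence of binding.

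Levels are given in CPM, which relate a gene's UMI to all UMI of its library and class, each UMI standing for 1 counted transcript tagged near its 3′ end, so no division by transcript length was made. Libraries held 6261 to 8909 cells and 81042216 to 110018960 UMI, and pairs of libraries shared 28 to 60 cell barcodes. Cells came with a deposited class, 17 in all, used as labels. Of 13 marker lists, those of differentiating spermatogonia and of late spermatocytes were both highest in the class labelled Round ST(Step 1-2), so names and markers do not match there. Early spermatocyte markers, highest in Preleptotene SC with 9680 CPM, were also abundant in the class labelled Differentiated SG. They summed to 7397 ± 341 CPM in NONO deltaER and 7292 ± 224 CPM in NONO. In undifferentiated spermatogonia these sums were 1444 ± 149 and 1384 ± 46.7 CPM (SD, n = 3 each). The list of elongated spermatids was highest in Round ST(Step 7-8), with 136549 CPM, and not in Elongated ST. The share of UMI from the 13 mitochondrially encoded genes divided the libraries without regard to genotype. It was 0.130%, 0.104% and 0.298% in TD, TE and TF, against 0.300%, 0.297% and 0.0862% in TA, TB and TC, so that TF, TA and TB formed a high set and TD, TE and TC a low one. Nono itself had 5.14 ± 0.131 CPM over all cells in NONO deltaER and 4.96 ± 0.942 CPM in NONO (SD, n = 3 each), and a 3′ tag outside an altered region would not report an altered transcript. Classes were drawn from these same cells, so differences between classes are given as descriptions without a test. Processed pseudogenes of small subunits can take or share reads, so a low level of a member may be a matter of counting.

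Members were abundant in early germ cells and in Leydig cells and sparse in late spermatids. Their summed level, as the mean of 6 libraries, was 4661 CPM in undifferentiated spermatogonia, 3908 CPM in Differentiated SG and 4644 CPM in Preleptotene SC. It was 5468 CPM in Lep/Zygo/ePac SC, the class of leptotene to early pachytene spermatocytes, with libraries between 5213 and 5777 CPM. Through the later classes it was 4531 CPM in IPac/eDip SC, 4552 in Round ST(Step 1-2), 4463 in step 3, 3541 in steps 4-5, 2668 in steps 5-6, 1674 in steps 6-7, 851 in steps 7-8 and 360 in Elongated ST. The ranges of libraries in Lep/Zygo/ePac SC, in steps 7-8 (815 to 889 CPM) and in Elongated ST (299 to 393 CPM) did not overlap. Among the classes that are not germ cells, Leydig cells, which make steroid hormones in part inside mitochondria, had 5928 CPM (4655 to 6951 over libraries), Sertoli cells 3291, myoid cells 3239, macrophages 2723 and the class labelled Unknown 2985 CPM. The ranges of Leydig cells and Lep/Zygo/ePac SC overlapped.

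**Figure D1:**
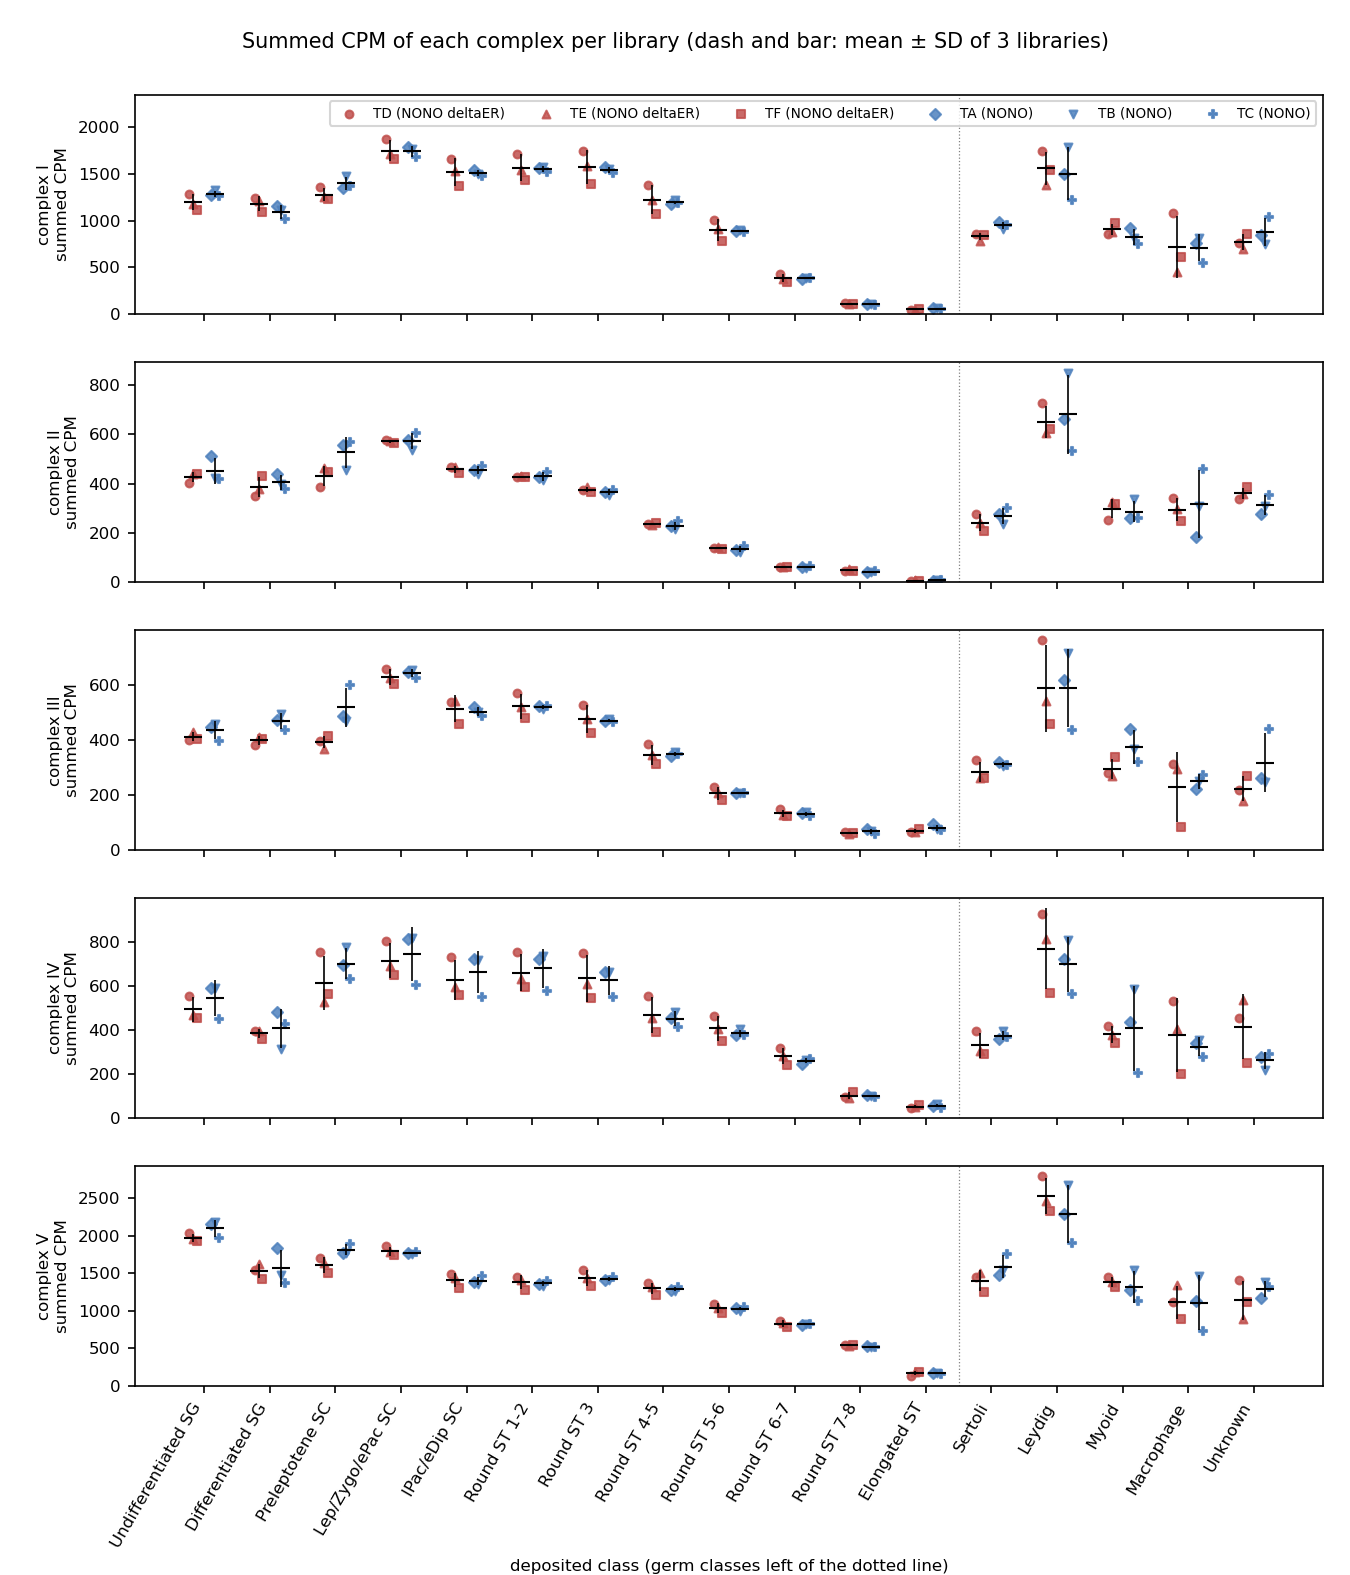
Summed level of the members of each complex in each of the 17 classes, in CPM on linear axes from 0, with 1 point per library (NONO deltaER left of NONO) and a dash and bar for the mean ± SD of 3 libraries. As means of 6 libraries complexes I to V have 1747, 572, 636, 729 and 1784 CPM in Lep/Zygo/ePac SC, and 109, 45.1, 64.8, 101 and 532 CPM in steps 7-8.

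The low level in late spermatids was shared by most members, with a few exceptions. Of the 54 members with at least 10 CPM in Lep/Zygo/ePac SC, 51 were lower in steps 7-8 and 40 had under 10% of that level, with a median of 3.93%. The 3 that were higher were Atp5g1 at 189%, Cox7a2l at 135% and Ndufb7 at 112% of the Lep/Zygo/ePac SC level. In steps 7-8, 15 members still had 10 CPM or more, and Atp5g1 alone had over 100. The share of complex V among all member UMI was 62.7 ± 0.608% in NONO deltaER and 62.3 ± 0.850% in NONO in steps 7-8, against 30.4 ± 0.796% and 30.1 ± 1.15% in Round ST(Step 1-2) (SD, n = 3 each). Atp5g1 held 411 of the 532 CPM of complex V in steps 7-8, so the share there was largely that of this gene. It does not describe complex V members in general. Of 66 members that reached 10 CPM in some class, 17 were highest in Leydig cells, 12 in Preleptotene SC, 10 in Lep/Zygo/ePac SC and 6 in Round ST(Step 1-2). The other 8, Ndufb3, Ndufb4, Ndufs5, Ndufs6, Ndufa3, Atp5e, Atp5k and Cox7a1, stayed under 10 CPM in every class.

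**Figure D2:**
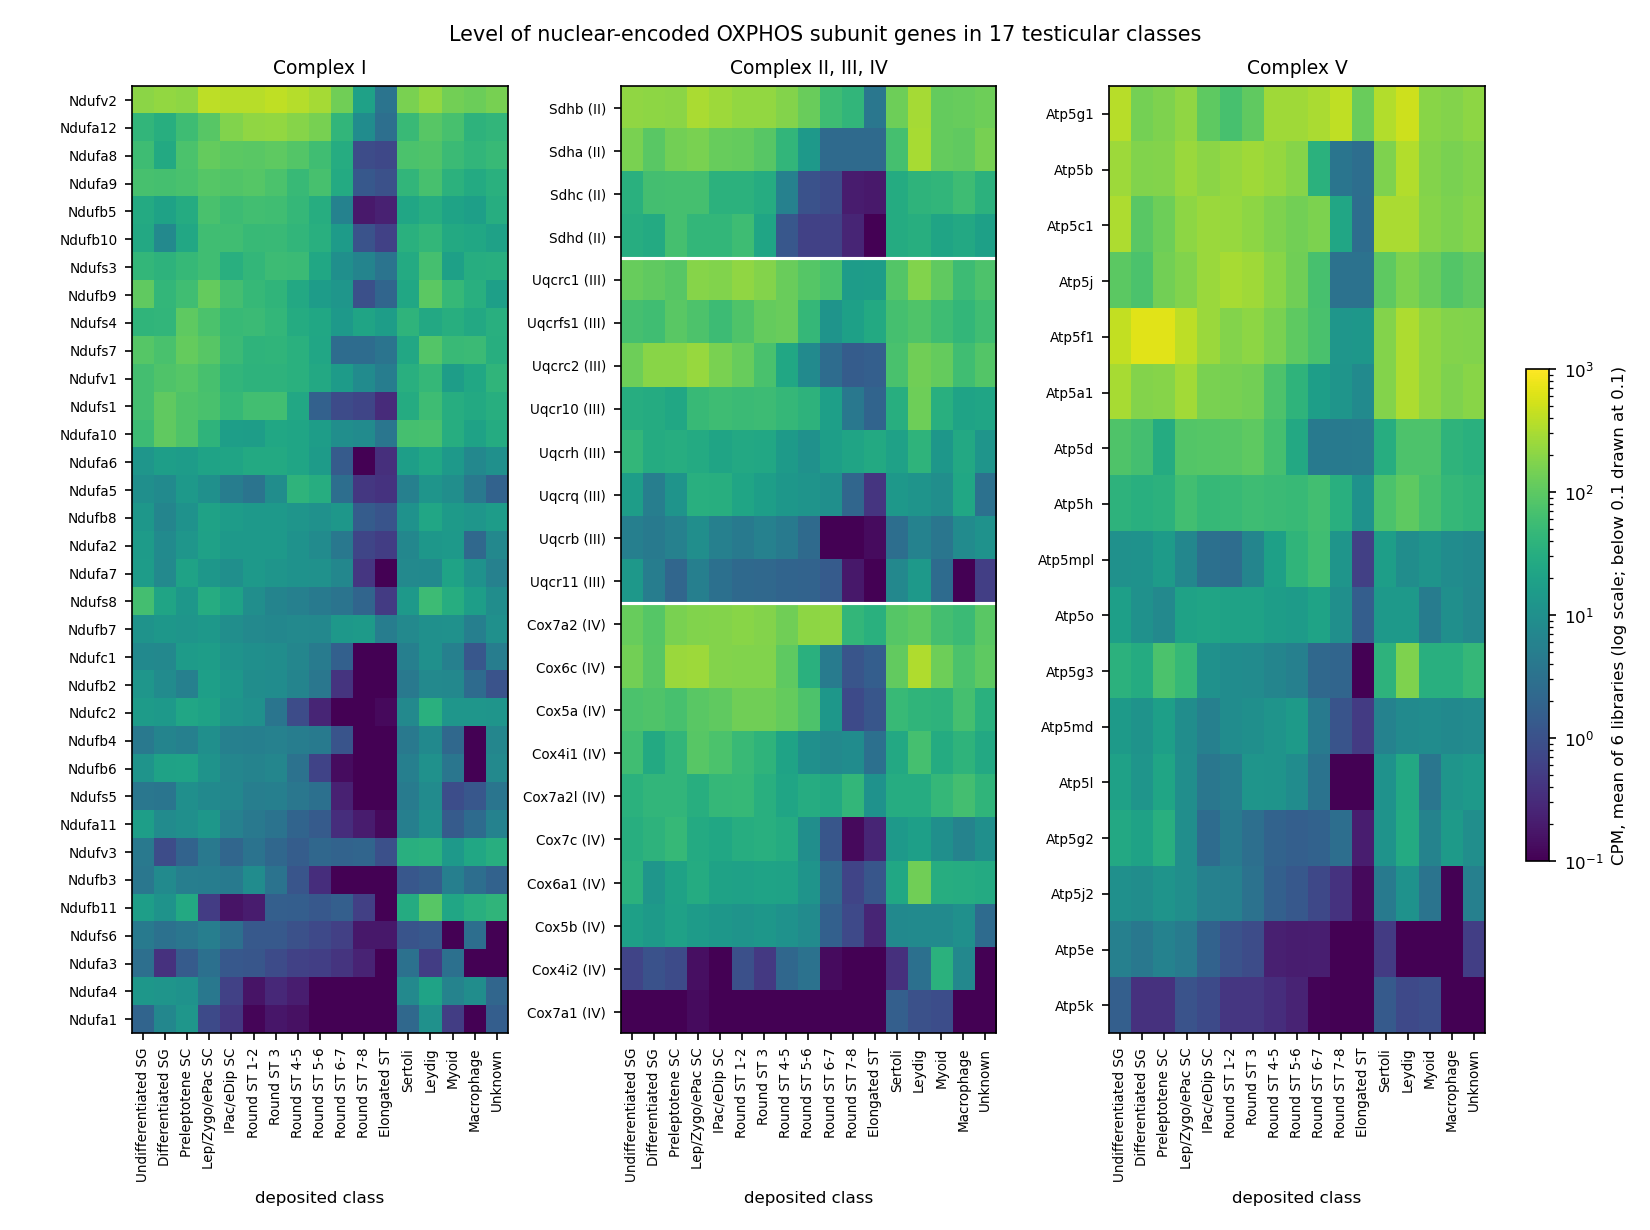
Level of the members, but for 1 that is not drawn, in each of the 17 classes, as the mean of 6 libraries in CPM on a logarithmic colour scale (values below 0.1 drawn at 0.1), grouped by complex. Most members are low in steps 7-8, Atp5g1 is high there at 411 CPM, and Ndufb11 is high in Leydig cells (89.8 CPM) and near 0 in Lep/Zygo/ePac SC (0.505 CPM).

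In complex I the members with the highest level over all cells included Ndufv2, an iron-sulfur subunit of the NADH-oxidizing tip, and Ndufa12, an accessory subunit. Ndufv2 averaged 312 CPM over all cells and 414 CPM in Round ST(Step 3), where it had 484, 404 and 356 CPM in TD, TE and TF and 424, 425 and 391 CPM in TA, TB and TC. Its NONO deltaER libraries thus spread around the NONO ones. Ndufa12 was a spermatid-weighted member, with 43.4 CPM in undifferentiated spermatogonia, 92.0 in Lep/Zygo/ePac SC, 221 in Round ST(Step 3) and 8.71 in steps 7-8. Ndufa5, a subunit named after its values were seen, was later still, with 3.49 CPM in Round ST(Step 1-2) and 40.1 CPM in steps 4-5. Ndufs1, the largest iron-sulfur core subunit and also named after its values were seen, had 104 CPM in Differentiated SG, 60.8 CPM in Round ST(Step 3), 24.7 CPM in steps 4-5 and 1.73 CPM in steps 5-6, a step at which Ndufv2 still had 284 CPM. Subunits of the same NADH-oxidizing arm thus differed in when their transcripts thinned out. Ndufv3, likewise named after its values were seen, had at most 4.12 CPM in any germ class but 33.4 CPM in Sertoli and 35.7 CPM in Leydig cells. Ndufa4, named for complex I and since placed in complex IV, had 13.0 CPM in undifferentiated spermatogonia, 0.584 CPM in IPac/eDip SC and 20.8 CPM in Leydig cells, and no UMI in steps 7-8, where 3 UMI over the 6 libraries would make 0.198 CPM.

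The X-linked members of complex I were near 0 in germ cells from Lep/Zygo/ePac SC on, a class in which X-linked transcripts as a whole were also scarce. Ndufb11 had 35.5, 22.4 and 18.6 CPM in TD, TE and TF and 28.7, 29.1 and 26.5 CPM in TA, TB and TC in Preleptotene SC. In Lep/Zygo/ePac SC it had 0.469 ± 0.270 CPM in NONO deltaER and 0.541 ± 0.221 CPM in NONO (SD, n = 3 each), from 8 and 12 UMI. Every library was thus far below its own Preleptotene SC level. Ndufa1 had 14.5 ± 5.84 CPM in NONO deltaER and 10.6 ± 2.34 CPM in NONO in Preleptotene SC, and 0.732 ± 0.0488 and 0.869 ± 0.111 CPM in Lep/Zygo/ePac SC. The 956 X-linked genes together gave 1.69 ± 0.0974% of UMI in NONO deltaER and 1.46 ± 0.0403% in NONO in Preleptotene SC, and 0.0488 ± 0.00501% and 0.0544 ± 0.00377% in Lep/Zygo/ePac SC. That X-linked share was back at 1.06 ± 0.00605% in NONO deltaER and 1.05 ± 0.00672% in NONO by steps 4-5. Ndufb11 was then at 1.54 CPM and Ndufa1 at 0.152 CPM as means of 6 libraries, so neither had returned to its spermatogonial level (17.7 and 1.93 CPM in undifferentiated spermatogonia). In Leydig cells Ndufb11 had 89.8 CPM, with 152, 47.8 and 82.5 CPM in TD, TE and TF and 74.1, 108 and 75.0 CPM in TA, TB and TC. Ndufa1 was not tested between genotypes in any class, being too low.

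**Figure D3:**
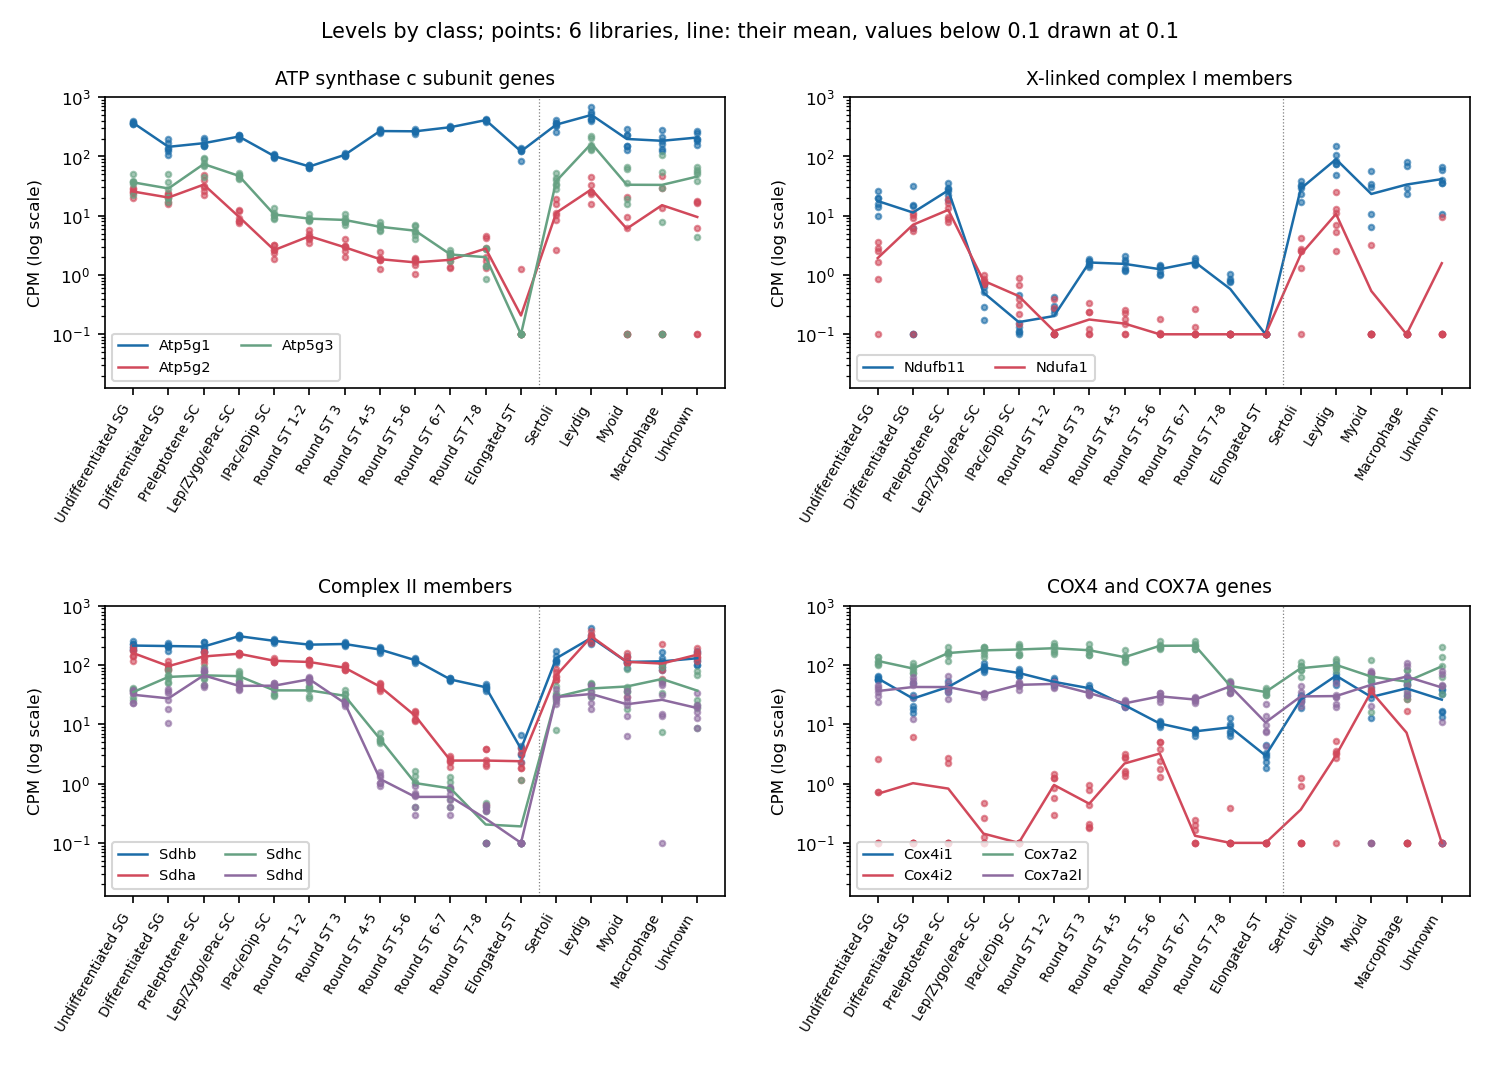
Level in CPM on a logarithmic axis (values below 0.1 drawn at 0.1) of the c subunit genes, the X-linked members, the complex II members and the COX4 and COX7A genes in the 17 classes, with 1 point per library of either genotype and a line through the means of 6. Atp5g1 has 67.7 CPM in Round ST(Step 1-2) and 411 CPM in steps 7-8, where Atp5g3 has 2.00 CPM, and Sdhd has 1.20 CPM in steps 4-5, where Sdhb has 183 CPM.

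Complex II has 4 subunits, the catalytic pair Sdha and Sdhb and the membrane anchors Sdhc and Sdhd, and their levels parted in spermatids. Sdhb, the iron-sulfur subunit, had 307 CPM in Lep/Zygo/ePac SC, 121 CPM in steps 5-6 and 42.2 CPM in steps 7-8. Sdha, the flavoprotein, had 155 CPM in Lep/Zygo/ePac SC and 13.9 CPM in steps 5-6. The anchors were nearly gone by then. Sdhd had 57.6 CPM in Round ST(Step 1-2), 22.8 in step 3, 1.20 in steps 4-5 and 0.596 in steps 5-6, and Sdhc had 65.0 CPM in Lep/Zygo/ePac SC and 1.02 CPM in steps 5-6. In steps 5-6 Sdhb had 124, 128 and 117 CPM in TD, TE and TF and 115, 106 and 133 CPM in TA, TB and TC, so each library held over 100 CPM of it.

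In complex III the core subunits Uqcrc1 and Uqcrc2, the Rieske subunit Uqcrfs1 and the hinge subunit Uqcrh had different courses. Uqcrc2 had 244 CPM in Lep/Zygo/ePac SC and 8.06 CPM in steps 5-6, while its partner Uqcrc1 had its highest level, 215 CPM, in Round ST(Step 1-2) and still 71.4 CPM in steps 6-7. Uqcrfs1, the Rieske iron-sulfur subunit, was highest in steps 4-5 with 122 CPM. Uqcrh, with at most 44.0 CPM in any class, had 27.4 CPM in Lep/Zygo/ePac SC, 21.9 CPM in steps 7-8 and 27.1 CPM in Elongated ST. The complex III members together, which do not include Cyc1, had 64.8 CPM in steps 7-8 and 74.9 CPM in Elongated ST. In Elongated ST Uqcrh had 26.7 ± 2.11 CPM in NONO deltaER and 27.5 ± 6.95 CPM in NONO (SD, n = 3 each).

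Complex IV holds several subunits with tissue isoforms. Cox5a, one of the 3 most abundant over all cells with Cox7a2 and Cox6c, had 135 CPM in Round ST(Step 1-2), 77.2 CPM in steps 5-6 and 0.791 CPM in steps 7-8. Cox6c was highest in Leydig cells with 330 CPM and had 261 CPM in Lep/Zygo/ePac SC and 4.67 CPM in steps 6-7. Cox7a2, the common form of subunit 7a, had instead 213 CPM in steps 6-7, with 256, 227 and 188 CPM in TD, TE and TF and 190, 208 and 208 CPM in TA, TB and TC. Its libraries overlapped between genotypes. The muscle form Cox7a1 had at most 1.60 CPM in any class. Cox7a2l, a relative of Cox7a2, had 43.8 CPM in steps 7-8, about as much as Cox7a2 there (44.4 CPM). The share of Cox7a2 among Cox7a1, Cox7a2 and Cox7a2l in steps 7-8 was 59.2%, 57.2% and 51.3% in TD, TE and TF and 44.7%, 41.3% and 49.2% in TA, TB and TC, without overlap, from at least 179 UMI per library. It was read out among 17 classes and was not tested. Of the subunit 4 isoforms, Cox4i1 had 90.9 CPM in Lep/Zygo/ePac SC and 8.90 CPM in steps 7-8. Cox4i2, known from smooth muscle and lung, was highest in myoid cells with 35.7 CPM, where TD, TE and TF had 34.2, 36.0 and 32.1 CPM and TA, TB and TC had 38.7, 73.2 and 0 CPM. Cox4i2 made up 21.3 ± 12.8% of the Cox4i1 and Cox4i2 UMI in steps 5-6 in NONO deltaER and 24.8 ± 9.51% in NONO, at a level of 3.22 CPM. Cox6a1, the non-muscle form of subunit 6a, was highest in Leydig cells with 135 CPM.

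In complex V the c subunit genes encode the same mature protein with different import sequences, and their levels diverged. Atp5g1 had 346, 364 and 368 CPM in TD, TE and TF and 399, 382 and 350 CPM in TA, TB and TC in undifferentiated spermatogonia. In Round ST(Step 1-2) it had 71.2, 70.6 and 64.9 CPM in TD, TE and TF and 65.1, 65.7 and 68.9 CPM in TA, TB and TC. In steps 7-8 it had 417, 403 and 428 CPM in TD, TE and TF and 415, 414 and 388 CPM in TA, TB and TC. The gene was thus low in each library in the first spermatid class by name and high in each library in the late class, with the genotypes overlapping in all of these. Atp5g3 had 74.5 CPM in Preleptotene SC, 47.0 CPM in Lep/Zygo/ePac SC and 2.00 CPM in steps 7-8, and Atp5g2 had 33.5 CPM in Preleptotene SC and 2.79 CPM in steps 7-8. Atp5g1 accordingly made up 60.6 ± 7.96% of c subunit UMI in NONO deltaER and 61.6 ± 4.64% in NONO in Preleptotene SC, and 98.7 ± 0.307% and 99.0 ± 0.441% in steps 7-8 (SD, n = 3 each). In Leydig cells its share was 74.3 ± 1.80% in NONO deltaER and 70.0 ± 2.34% in NONO, with Atp5g3 supplying most of the rest at 166 CPM.

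Of the 17 complex V genes, none was highest in steps 7-8 among the 17 classes, and Atp5mpl alone was highest in steps 6-7. Atp5b, the catalytic beta subunit, had 269 CPM in Round ST(Step 3), 186 CPM in steps 5-6, 36.1 CPM in steps 6-7 and 3.58 CPM in steps 7-8. Atp5c1, the gamma subunit of the central stalk, had 321 CPM in undifferentiated spermatogonia, 163 CPM in steps 6-7 and 23.7 CPM in steps 7-8. Atp5j had 99.1 CPM in undifferentiated spermatogonia, 301 CPM in Round ST(Step 1-2) and 3.19 CPM in steps 7-8. Atp5f1, subunit b of the peripheral stalk and named after its values were seen, was the most abundant member of any class, with 673 CPM in Differentiated SG and 650 CPM in Preleptotene SC. Atp5mpl, a small proteolipid of the synthase, had 2.65 CPM in Round ST(Step 1-2) and 58.9 CPM in steps 6-7.

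How closely a member followed the rest of its complex across the 17 classes varied widely. The Spearman correlation of a member's level with the summed level of the other members of its complex was lowest for Ndufb11 in complex I (-0.14), Sdhc in complex II (0.76), Uqcrh in complex III (0.46), Cox7a2l in complex IV (0.13) and Atp5mpl in complex V (-0.11), with Atp5g1 at -0.01. It was highest for Ndufc1 (0.93), Sdhd (0.88), Uqcrc1 (0.82), Cox4i1 (0.83) and Atp5j2 (0.90). These are correlations over 17 class means from the same 6 libraries and share their depth, so they carry no p-value.

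Between the genotypes no member passed the test in any class. NONO deltaER was set against NONO on summed UMI per library and class by edgeR's quasi-likelihood test with Benjamini-Hochberg adjustment over all genes of the class, and log2 fold changes below are NONO deltaER over NONO with their standard error. Of 740 member tests in the 17 classes, 0 had an adjusted p under 0.05 in edgeR, and DESeq2 also called 0, with 11 adjusted p not given and 5 unadjusted p under 0.05. At an unadjusted p under 0.05 edgeR had 5 of 61 members in undifferentiated spermatogonia, 2 of 24 in Differentiated SG, 9 of 37 in Preleptotene SC and 7 of 618 member tests in the other 14 classes. Over all cells, where a sum also moves with the mix of cells, 0 of 73 members had an adjusted or an unadjusted p under 0.05 in edgeR. Among all genes the adjusted calls were 0.0271% in undifferentiated spermatogonia, 0% in Differentiated SG, 0.327% in Preleptotene SC, 0% in the other 14 classes and 0% over all cells. The unadjusted share among all genes was 16.2%, 6.33%, 11.7%, 3.35% and 6% in the same order. The members' unadjusted shares were 8.20% in undifferentiated spermatogonia, 8.33% in Differentiated SG, 24.3% in Preleptotene SC and 1.13% in the other 14 classes. They lay above the share of all genes in Differentiated SG and Preleptotene SC and below it in undifferentiated spermatogonia and in the other 14 classes together. DESeq2 had 2 members with an unadjusted p under 0.05 in undifferentiated spermatogonia, 0 in Differentiated SG and 0 in Preleptotene SC. The member counts in Differentiated SG and Preleptotene SC thus came from edgeR alone. The DESeq2 share among all genes is not given here, so the DESeq2 member counts have no background to be read against.

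**Figure D4:**
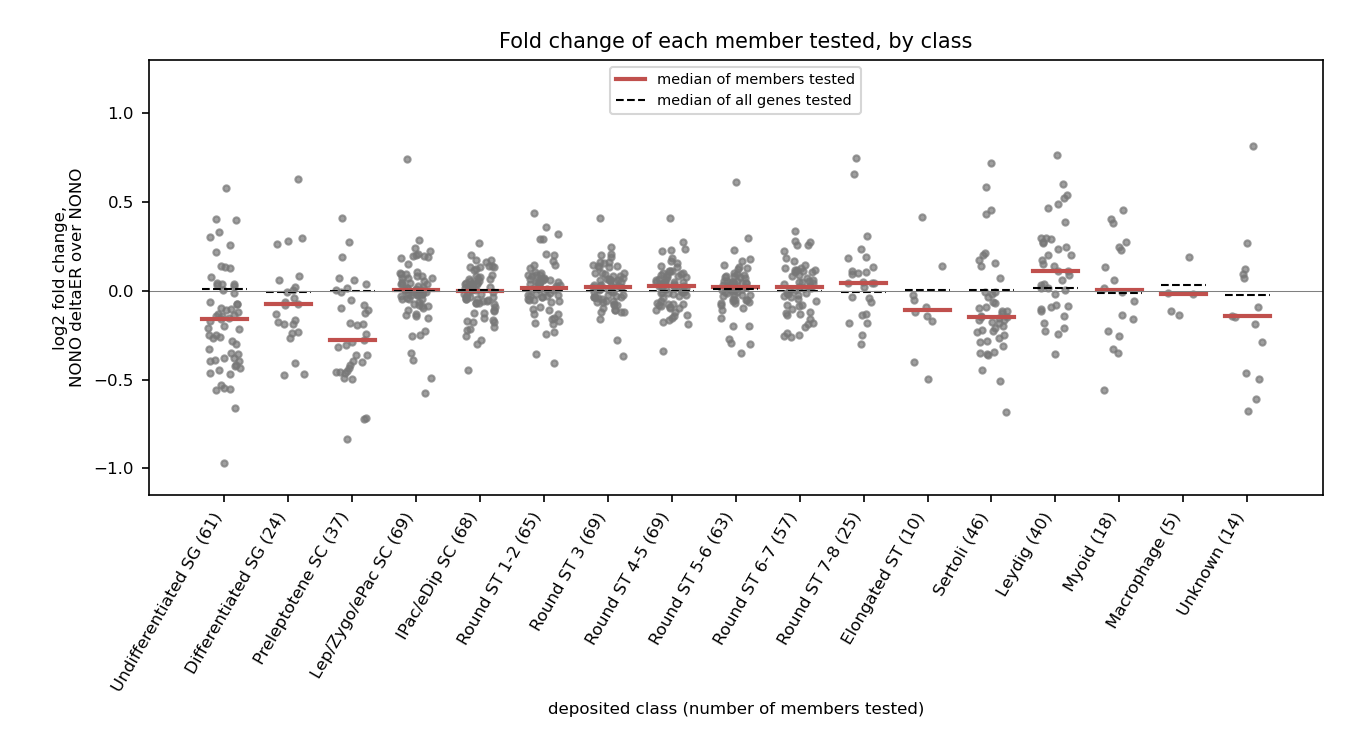
Log2 fold change of NONO deltaER over NONO of every tested member in each of the 17 classes, 1 point per member, with the members' median (red) and the median of all genes tested (dashed). The members' medians lie at -0.28 in Preleptotene SC, -0.16 in undifferentiated spermatogonia, -0.15 in Sertoli cells and 0.11 in Leydig cells, and close to 0 from Lep/Zygo/ePac SC to steps 7-8.

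In Preleptotene SC, which held 135 to 295 cells per library, the fold changes lay mostly below 0. Of 37 tested members 29 were below 0, with a median of -0.28, against 50.2% of all genes below 0 and a median of 0.00. All 10 tested members of complex V were below 0 (median -0.28), with 9 of 13 in complex I (-0.31), 3 of 4 in complex II (-0.36), 3 of 4 in complex III (-0.29) and 4 of 6 in complex IV (-0.10). The summed level of all members was 4597, 4241 and 4152 CPM in TD, TE and TF and 4854, 4949 and 5073 CPM in TA, TB and TC, so every NONO deltaER sum was below every NONO sum. With genes of low counts kept in, the median of the members was -0.17. The CPM of 7 of the 37 members (18.9%) did not overlap between the genotypes, against 16.7% of all genes tested in the class, so the members' share was near that of all genes.

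For each complex the member with the smallest unadjusted p in Preleptotene SC is given here, so its p describes the choice. Sdhd had 46.5, 67.1 and 42.4 CPM in TD, TE and TF and 86.1, 80.9 and 79.5 CPM in TA, TB and TC, for a log2 fold change of -0.72 ± 0.264 (edgeR adjusted p = 0.244). Every NONO deltaER library was below every NONO library. Atp5b had 175, 131 and 159 CPM in TD, TE and TF and 238, 204 and 168 CPM in TA, TB and TC (-0.46 ± 0.170, edgeR adjusted p = 0.257), with an overlap between TD and TC. Uqcrc2 had 175, 153 and 172 CPM in TD, TE and TF and 221, 175 and 278 CPM in TA, TB and TC (-0.43 ± 0.164, edgeR adjusted p = 0.264). Its lowest NONO library met its highest NONO deltaER library at 175 CPM. Cox6c had 271, 189 and 199 CPM in TD, TE and TF and 291, 356 and 221 CPM in TA, TB and TC (-0.45 ± 0.165, edgeR adjusted p = 0.257), and Ndufb9, an accessory subunit of complex I, had 62.9, 41.5 and 29.2 CPM in TD, TE and TF and 59.6, 61.5 and 106 CPM in TA, TB and TC (-0.72 ± 0.300, edgeR adjusted p = 0.317). Both overlapped between genotypes. Sdhb, at -0.40 ± 0.156 (edgeR adjusted p = 0.283), had 175, 166 and 196 CPM in TD, TE and TF and 243, 204 and 247 CPM in TA, TB and TC without overlap. Atp5c1 had 104, 134 and 103 CPM in TD, TE and TF and 144, 142 and 159 CPM in TA, TB and TC (-0.42 ± 0.192, edgeR adjusted p = 0.377), also without overlap. The last 2 of the 9 members with an unadjusted p under 0.05 were Ndufs7 at -0.50 ± 0.210 (edgeR adjusted p = 0.317), a core subunit of complex I, and Ndufb5 at -0.84 ± 0.414 (edgeR adjusted p = 0.420), an accessory one. All 9 were lower in NONO deltaER, while DESeq2 had 0 members with an unadjusted p under 0.05 in this class. That DESeq2 count has no share of all genes beside it. Sdhc, the other anchor of complex II, went the other way with 57.4, 92.7 and 71.6 CPM in TD, TE and TF and 59.6, 45.3 and 75.1 CPM in TA, TB and TC (0.28, edgeR adjusted p = 0.738).

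In undifferentiated spermatogonia, with 165 to 332 cells per library, 44 of 61 tested members were below 0 with a median of -0.16, against 48.4% of all genes and a median of 0.01. Atp5j had 83.2, 74.9 and 87.1 CPM in TD, TE and TF and 98.4, 139 and 113 CPM in TA, TB and TC, for a log2 fold change of -0.56 ± 0.164 (edgeR adjusted p = 0.134). Sdhb had 184, 181 and 202 CPM in TD, TE and TF and 253, 231 and 229 CPM in TA, TB and TC (-0.40 ± 0.121, edgeR adjusted p = 0.143). Ndufa9, a complex I subunit near the ubiquinone site, had 63.6, 56.4 and 59.8 CPM in TD, TE and TF and 87.6, 75.1 and 72.7 CPM in TA, TB and TC (-0.46 ± 0.167, edgeR adjusted p = 0.193). In all of these every NONO deltaER library was below every NONO library. Atp5j passed the threshold of 0.05 without the library TA (-0.70, edgeR adjusted p = 0.0333) and with the filter on low counts left off (-0.54, edgeR adjusted p = 0.0457), and over its 14 alternatives the adjusted p ran from 0.0333 to 0.454. Ndufa12 had 38.3, 36.2 and 32.4 CPM in TD, TE and TF and 39.1, 51.8 and 62.7 CPM in TA, TB and TC (-0.55 ± 0.220, edgeR adjusted p = 0.238), and Ndufa5 had 7.95, 8.42 and 3.32 CPM in TD, TE and TF and 10.1, 14.2 and 14.2 CPM in TA, TB and TC (-0.97 ± 0.417, edgeR adjusted p = 0.268). These complete the 5 members with an unadjusted p under 0.05, all lower in NONO deltaER and none overlapping between the genotypes. Of the 61 members, 7 (11.5%) did not overlap, against 21.9% of all genes tested in the class, a smaller share than among all genes. Uqcrc1 and Cox6c, of smallest p in complexes III and IV, were at -0.30 ± 0.144 (edgeR adjusted p = 0.328) and -0.45 ± 0.215 (edgeR adjusted p = 0.341), and their libraries overlapped.

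Marker lists of several germ cell stages also differed between the libraries of these classes. In undifferentiated spermatogonia the 8 markers of stem and progenitor spermatogonia, the class's own, summed to 1301 ± 166 CPM in NONO deltaER (1123 to 1451) and 1037 ± 35.1 CPM in NONO (1013 to 1077) without overlap, with 0 of 8 lower in NONO deltaER. The 9 measured round spermatid markers summed to 459 ± 136 CPM in NONO deltaER (345 to 610) and 835 ± 251 CPM in NONO (588 to 1090), and all 9 were lower in NONO deltaER, with 0 of them at 0. The 7 late spermatocyte markers summed to 840 ± 216 CPM in NONO deltaER (697 to 1089) and 1322 ± 364 CPM in NONO (982 to 1707), all 7 lower in NONO deltaER. Both of these ranges overlapped between the genotypes, and the round spermatid sum was highest in TC, while Atp5j was highest in TB. The 6 elongated spermatid markers summed to 8050 ± 1640 CPM in NONO deltaER and 8020 ± 2466 CPM in NONO, 3 of 6 lower in NONO deltaER. As means of 6 libraries, Atp5j had 268 CPM in Round ST(Step 3) and 99.1 CPM in undifferentiated spermatogonia, and Ndufa12 had 221 and 43.4 CPM. In Preleptotene SC the late spermatocyte markers summed to 984 ± 27.6 CPM in NONO deltaER (952 to 1000) and 1274 ± 87.4 CPM in NONO (1178 to 1349), with 6 of 7 lower in NONO deltaER and 0 at 0, and the round spermatid markers to 143 ± 28.8 CPM in NONO deltaER and 165 ± 19.4 CPM in NONO. The late spermatocyte sums did not overlap there. The 6 elongated spermatid markers summed in Preleptotene SC to 3325 ± 1442 CPM in NONO deltaER and 4896 ± 2302 CPM in NONO, overlapping, with 4 of 6 lower in NONO deltaER. The 7 measured early spermatocyte markers, the class's own, summed to 9559 ± 413 CPM in NONO deltaER and 9802 ± 559 CPM in NONO. These overlapped too, with 2 of 7 lower in NONO deltaER. In Differentiated SG the 5 markers of differentiating spermatogonia summed to 1028 ± 89.3 CPM in NONO deltaER (932 to 1109) and 1208 ± 54.9 CPM in NONO (1146 to 1251), with 5 of 5 lower in NONO deltaER. The 7 late spermatocyte markers summed to 280 ± 28.9 CPM in NONO deltaER (246 to 297) and 359 ± 61.5 CPM in NONO (298 to 421) in Differentiated SG, with 5 of 7 lower. Neither list overlapped between the genotypes. The 6 elongated spermatid markers summed in Differentiated SG to 2767 ± 2043 CPM in NONO deltaER and 4443 ± 3558 CPM in NONO. All 6 were lower in NONO deltaER, while the sums overlapped. The part of the mix of cells or of free RNA in the fold changes was not tested.

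**Figure D5:**
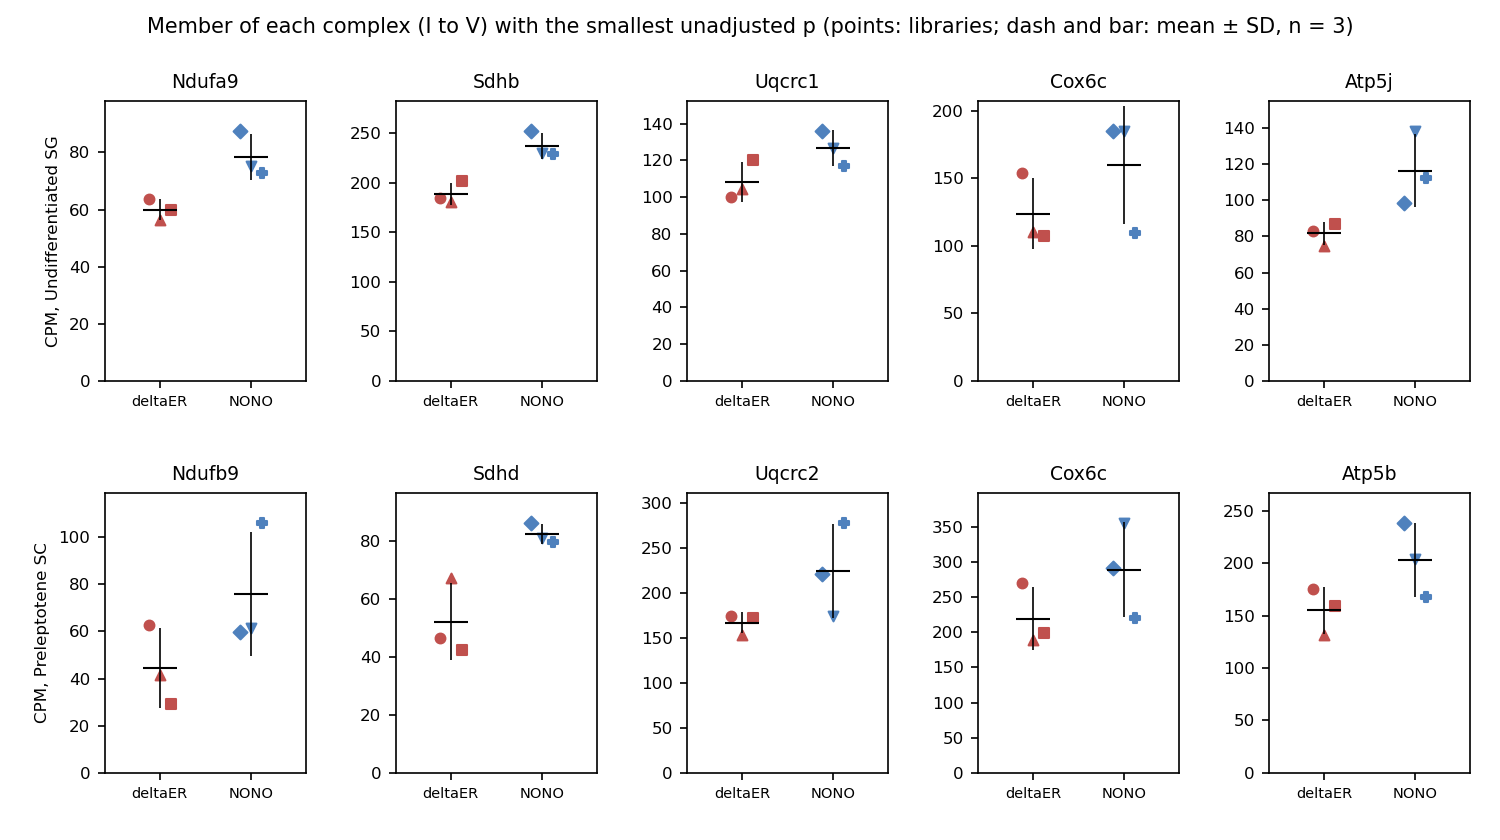
Level in CPM per library, on axes from 0, of the member of each complex with the smallest unadjusted p in undifferentiated spermatogonia (upper row) and in Preleptotene SC (lower row), with NONO deltaER left of NONO, 1 point per library and a dash and bar for the mean ± SD of 3. Atp5j, Sdhb and Ndufa9 in the upper row and Sdhd in the lower row show no overlap between the genotypes, whereas Cox6c overlaps in both rows.

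Differentiated SG held 64 to 141 cells per library and 24 tested members, 16 of them below 0 with a median of -0.08, against 50.5% of all genes below 0 and a median of 0.00. Without overlap between the genotypes were 3 of the 24 members (12.5%), against 12.6% of all genes tested in the class. Atp5g1 had 125, 135 and 106 CPM in TD, TE and TF and 137, 171 and 197 CPM in TA, TB and TC (-0.47 ± 0.213, edgeR adjusted p = 0.721). Ndufa9 had 74.8, 89.1 and 78.4 CPM in TD, TE and TF and 45.8, 61.0 and 46.8 CPM in TA, TB and TC (0.63 ± 0.305, edgeR adjusted p = 0.781), the opposite order to that in undifferentiated spermatogonia. Neither gene overlapped between the genotypes. Uqcrc1 had 81.4, 89.1 and 101 CPM in TD, TE and TF and 133, 122 and 104 CPM in TA, TB and TC (-0.48 ± 0.250, edgeR adjusted p = 0.813), while Sdhb was at -0.18 ± 0.179 (edgeR adjusted p = 0.915) and Cox6c at 0.27 ± 0.271 (edgeR adjusted p = 0.917). Without TA the median of the members in Differentiated SG was 0.08.

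In Sertoli cells 36 of 46 members were below 0 with a median of -0.15, against 49.0% of all genes below 0, and the summed level was 3307, 3105 and 2854 CPM in TD, TE and TF and 3407, 3385 and 3691 CPM in TA, TB and TC. These libraries did not overlap. The 7 early spermatocyte markers summed there to 307 ± 34.3 CPM in NONO deltaER (272 to 340) and 432 ± 50.1 CPM in NONO (382 to 482), also without overlap, 5 of 7 lower in NONO deltaER. The 9 round spermatid markers summed to 915 ± 257 CPM in NONO deltaER (733 to 1208) and 1123 ± 97.7 CPM in NONO (1030 to 1225), all 9 lower in NONO deltaER, and all 7 late spermatocyte markers were lower too, with overlap in both sums. The 6 elongated spermatid markers summed to 28153 to 41174 CPM in NONO deltaER and 27489 to 41026 CPM in NONO, overlapping, with 2 of 6 lower in NONO deltaER. The Sertoli cells' own 8 markers summed to 5393 ± 1152 CPM in NONO deltaER and 5242 ± 322 CPM in NONO, and the part of these lists was not tested. Without TF the Sertoli median was -0.06.

 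In Leydig cells, with 67 to 187 cells per library, 12 of 40 members were below 0 with a median of 0.11, against 48.3% of all genes below 0. The median was -0.09 without TC and -0.07 without TD. The 6 elongated spermatid markers summed in Leydig cells to 4881 to 6890 CPM in NONO deltaER and 11766 to 22799 CPM in NONO, without overlap and with 6 of 6 lower in NONO deltaER. The 5 measured Leydig markers summed to 14787 ± 3488 CPM in NONO deltaER and 12092 ± 3662 CPM in NONO, overlapping, with 0 of 5 lower in NONO deltaER, and the part of either list was not tested.

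From Lep/Zygo/ePac SC to steps 6-7 the members' medians lay between 0.00 and 0.03. The summed level in Lep/Zygo/ePac SC was 5458 ± 289 CPM in NONO deltaER and 5478 ± 164 CPM in NONO, and in Round ST(Step 3) 4494 ± 441 and 4432 ± 69.1 CPM (SD, n = 3 each). In steps 7-8 Cox7a2 had 48.8, 46.0 and 53.3 CPM in TD, TE and TF and 41.5, 35.3 and 41.3 CPM in TA, TB and TC (0.31 ± 0.138), and Atp5mpl had 20.9, 12.3 and 11.9 CPM in TD, TE and TF and 8.16, 10.0 and 8.60 CPM in TA, TB and TC (0.75 ± 0.263). Neither passed the test (edgeR adjusted p = 0.999 for both), though neither overlapped between genotypes. These were 2 of 25 members tested in steps 7-8 (8%), against 7.97% of all genes.

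The libraries of a genotype differed among themselves in a way that ran through the complexes. TD had the highest summed level of complex I in 10 of 17 classes and TF the lowest in 9, and for complex V TD was highest in 9 classes and TF lowest in 10. For complex II TC was highest in 10 classes and TB lowest in 8. The difference between the genotype means was smaller than the range of the NONO deltaER libraries in 16, 15, 13, 17 and 16 of 17 classes for complexes I, II, III, IV and V. Such counts are no test, and with 3 libraries each they cannot tell a genotype difference from library spread. They also use the range of NONO deltaER alone. In Round ST(Step 3), for example, complex I had an SD of 179 CPM in NONO deltaER and 33.7 CPM in NONO. Within the high-mitochondrial set (TF against TA and TB), the log2 ratios of the summed levels in Preleptotene SC were -0.20, -0.18, -0.21, -0.38 and -0.24 for complexes I to V. Within the low set (TD and TE against TC) they were -0.08, -0.43, -0.65, 0.02 and -0.18. In undifferentiated spermatogonia they were -0.22, -0.09, -0.17, -0.38 and -0.16 in the high set and -0.03, 0.00, 0.06, 0.19 and 0.02 in the low set, so the low set had no ratio under -0.03. The medians near 0 from Lep/Zygo/ePac SC to steps 6-7 covered opposite differences in the sets. For complex IV the ratio was -0.36 to -0.08 in the high set and 0.17 to 0.30 in the low set over these 7 classes, with -0.33 and 0.30 in Lep/Zygo/ePac SC. For complex I it was -0.19 to -0.10 in the high set and 0.05 to 0.14 in the low set, and for complex III -0.19 to -0.11 and 0.04 to 0.17. Complex V had -0.09 to -0.03 in the high set and 0.00 to 0.05 in the low set, while complex II had -0.02 to 0.11 and -0.10 to 0.02. Leydig cells had -0.54 to -0.09 over the 5 complexes in the high set and 0.33 to 0.63 in the low set, whereas in Sertoli cells all 5 were below 0 in both sets.

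The mitochondrially encoded subunits had their own course. Their 13 genes summed to 16989 ± 3344 CPM in NONO deltaER and 17410 ± 3713 CPM in NONO in Preleptotene SC. In Lep/Zygo/ePac SC they had 2627, 2760 and 10224 CPM in TD, TE and TF and 10377, 9895 and 2330 CPM in TA, TB and TC, so the library set and not the genotype went with the level. In the same cells the nuclear members were at their highest germ-cell sum. In steps 7-8 the mitochondrial genes summed to 156 ± 43.8 CPM in NONO deltaER and 131 ± 12.0 CPM in NONO (SD, n = 3 each).

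A list of 74 other genes of the pathway, 70 of them measured, holds assembly factors of the complexes, carriers and nuclear regulators. It also holds subunits that the symbol rule does not reach, among them Cyc1, Ndufab1, Cox8a and Cox8c. In edgeR 0 of 62 tested in undifferentiated spermatogonia, 0 of 24 in Differentiated SG and 0 of 35 in Preleptotene SC had an adjusted p under 0.05, and 6, 0 and 2 had an unadjusted p under 0.05. These are 9.68%, 0% and 5.71%, below the 16.2%, 6.33% and 11.7% of all genes in the same classes, and the genes are named to complete the account. In undifferentiated spermatogonia those were Lrpprc, which stabilizes mitochondrial mRNA, at 0.29 (edgeR adjusted p = 0.269), the ATP synthase inhibitor Atpif1 at -0.66 (0.189), and the assembly factors Lyrm7 at -0.91 (0.210), Sdhaf4 at -0.76 (0.261), Ndufaf3 at -0.63 (0.292) and Cox18 at -0.63 (0.278). Of these, Lrpprc was higher in NONO deltaER and the other 5 lower. Without TA, Lyrm7 passed the threshold at -1.24 (edgeR adjusted p = 0.0440). In Preleptotene SC they were the mitochondrial DNA polymerase Polg at -0.54 (edgeR adjusted p = 0.420) and the assembly factor Cox16 at 0.67 (0.312).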

How the data were processed

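Testes were digested to single cells and libraries made with the 10x Genomics 3′ v2 chemistry, per the labels. Cell Ranger 2.1.1 and mm10 are named in the submitters' processing notes, while later steps are not stated in the sources at hand. In the deposited matrix are raw UMI counts of 25771 genes in 46495 cells, and the deposited cell table gives library, group, class and a mitochondrial percent per cell, which only described the cells. Its groups KI and WT were read as NONO deltaER and NONO, and were this wrong, every direction would turn. The table does not tie libraries to numbered samples.

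Counts were summed per library and class, for classes in which 2 or more libraries per genotype had 20 or more cells, since cells are not replicates. The fit was edgeR 4.0.16 in R 4.3.3 (TMM, filterByExpr, robust quasi-likelihood test), adjusted by Benjamini-Hochberg over all genes of a class at 0.05, and was tested on simulated data first. There 17.9% of 1.5-fold changes passed in Preleptotene SC and 15.3% in undifferentiated spermatogonia, so most changes of that size went uncalled. Changes of 2-fold passed in 71.2% and 62.9% of cases in these classes. CPM and the sums over members were computed from the same counts, with Python 3.11.15. Doublets were not called, and an alternative left out the top 5% of cells by UMI instead. Other alternatives were DESeq2 1.42.0, RLE or total-count scaling, no filter, mitochondrially encoded genes left out, at least 1000 UMI per cell, the library set as a covariate and each library left out. Positions came from GENCODE M21.

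Members and lists were chosen with earlier results of these data known. Genes were named when called, when among the 3 highest of their complex over all cells, when of smallest p in their complex in one of the early germ classes, when most or least like the rest of their complex over classes, when isoforms, or when X-linked. Values of 1 complex I member are not reported here by themselves, though counts and sums over members hold it.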

Additional observations from a re-analysis of the deposited data

Results flagged for a closer look

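Ndufa9, an accessory subunit of complex I, had opposite orders of the genotypes in neighbouring classes. In undifferentiated spermatogonia all 3 NONO deltaER libraries were below all 3 NONO libraries, and in Differentiated SG all 3 were above. The log2 ratio of mean CPM (NONO deltaER over NONO) in undifferentiated spermatogonia minus that in Differentiated SG was -1.05. The difference was not tested, and neither class's own test passed the threshold. Ndufa9 was chosen as the complex I member of smallest edgeR p in both classes. Members without overlap were 11.5% in undifferentiated spermatogonia and 12.5% in Differentiated SG, against 21.9% and 12.6% of all genes tested. Differentiated SG was shallow, with 163914 to 218184 UMI of all genes in the NONO libraries. Its depth was unequal between the genotypes, with 454758, 347977 and 178569 UMI in TD, TE and TF. Groups of 3 libraries are too small to look for a single library far from the rest.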

How the results depend on the processing

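No paired analysis was possible because the cell table carries no replicate numbers. Adding the library set as a covariate and leaving out libraries were run instead. The number of members called in undifferentiated spermatogonia was 0, and 1 with no filter on low counts (Atp5j, -0.54, edgeR adjusted p = 0.0457). Leaving out 1 library at a time gave 0 to 1 called members there, the 1 being Atp5j without TA, and 0 to 1 called genes among the other pathway genes, Lyrm7 without TA. For 32 fold changes of single genes in a class, those printed here, 444 alternative values kept their direction and their side of the threshold (2 of them with no adjusted p from DESeq2), 3 passed it (Atp5j in undifferentiated spermatogonia in both cases above, and Lyrm7 there without TA at -1.24, edgeR adjusted p = 0.0440) and 0 turned round. The members' median kept its sign in all 14 alternatives in undifferentiated spermatogonia (-0.20 to -0.09), Preleptotene SC (-0.34 to -0.17), steps 7-8 (0.01 to 0.11), Elongated ST (-0.18 to -0.02) and Sertoli cells (-0.24 to -0.06). It turned in 1 of 14 in Differentiated SG, in 2 of 14 in Leydig cells, and in 2 to 7 in each of the other classes. Macrophages were the class where a scaling or filter moved the median of all genes by over 0.1, from 0.03 to -0.08 with total counts and -0.18 with no filter. Depth limits the rarer classes: 3 UMI over the 6 libraries make 1.47 CPM in Preleptotene SC, 1.93 CPM in Differentiated SG and 6.59 CPM in macrophages, against 0.0228 CPM in steps 4-5, limits that cover counting error only.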

Other observations

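Other genes of the pathway had class patterns as marked as those of the members, given here as means of 6 libraries without a test. Tfam, the factor that packages and transcribes mitochondrial DNA, had 70.7 CPM in undifferentiated spermatogonia, 1.45 CPM in Round ST(Step 1-2), 361 CPM in steps 5-6, 952 CPM in steps 6-7 and 111 CPM in steps 7-8. Its level in steps 6-7 was above that of every member in any class. Ndufaf3, an assembly factor of complex I, was highest in IPac/eDip SC with 384 CPM, against 11.7 CPM in Differentiated SG. The adenine nucleotide carriers divided by cell type: Slc25a4 had 246 CPM in Sertoli cells and at most 15.8 CPM in any germ class, while Slc25a31, the germ-cell form, had 303 CPM in Differentiated SG and 15.9 CPM in Sertoli cells. Etfa, a subunit of the flavoprotein that takes electrons from fatty acid oxidation, had 337 CPM in Differentiated SG, 33.5 CPM in Lep/Zygo/ePac SC, 1.75 CPM in IPac/eDip SC and 302 CPM in Leydig cells. Cox8c, the testis form of complex IV subunit 8, was highest in Lep/Zygo/ePac SC with 51.3 CPM.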
